A study of Mus musculus with 12 samples.

Results

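The genes described here are 9 components of the epithelial tight junction: the claudins Cldn2, Cldn3, Cldn4, Cldn7, Cldn8, Cldn15 and Cldn23, occludin (Ocln) and the scaffold gene Tjp1. They were taken by symbol from a table of 30265 genes, and all 9 were found and passed the filter on low values. The table came from intestinal epithelium of C57Bl/6 mice carrying Sox9-GFP, in which green fluorescence marks cells by their level of the transcription factor Sox9. Cells were sorted by fluorescence into 4 populations, called by the labels Sox9 High, Low, Sublow and Negative (the prefix is dropped below), with 3 libraries each, lettered A to C. Each of the 12 libraries was a single-end RNA-seq library from 12000 cells, made from ribosome-depleted total RNA with a Clontech SMARTer Pico v2 kit. All groups share strain and reporter, and no treatment is named. Age, sex and the number of mice are not given in the labels used here. The gut segment is not spelled out, though the sample descriptions begin with the letters SI. The labels do not tie the 3 libraries of a population to different mice, and the p-values below therefore reflect variation between libraries, which may be technical.

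Tight junctions are belts of strands near the apex of epithelial cells that close the space between neighbours. Claudins are membrane proteins that polymerise into these strands. Some of them form channels for ions or water and others seal the strand, so the set of claudins in a cell sets what can pass between cells. Occludin joins the strands as an accessory membrane protein, and Tjp1 (ZO-1) is the cytoplasmic scaffold that ties them to actin.

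Recovered read totals were 11.6 M to 17.0 M per library, and 3 reads corresponded to 2.38 to 4.61 normalised units. Sox9 itself followed the sort, with mean normalised read counts of 20262 in High, 6601 in Low, 2084 in Sublow, then 604 in Negative. The epithelial surface gene Epcam averaged 14192, 14400, 20277 and 25733 in the same order. The 6 listed enteroendocrine markers summed to 337303 to 546489 in High libraries and to at most 72931 elsewhere, and the 6 tuft markers to 86894 to 91742 in High and at most 14280 elsewhere. The 6 stem cell markers summed to 60694 to 80144 in Low and the 6 enterocyte markers to 386581 to 583968 in Negative. Libraries of a population were not alike in these markers. Enterocyte sums ran from 54909 to 316990 and stem cell sums from 7314 to 33864 in Sublow, and Low B stood above Low A and Low C in goblet markers (475894 against 136356 and 163032) and enterocyte markers (30999 against 12035 and 11327). Low B was also the highest Low library for Cldn3, Cldn4, Cldn15 and Cldn23. The 8 leukocyte markers summed to 2011 to 3418 in High, mostly Ptprc, and to at most 282 elsewhere, and the 7 stromal markers to 3038 to 4732 in High, mostly Vim, and at most 1168 elsewhere. All marker lists were complete in the table and none of their genes was at 0 in every library. In sorted bulk RNA, fewer cells of a type and less RNA per cell cannot be told apart, and the part of these cell types in the results below was not tested.

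Start regions are shown for 4 of the genes, because their levels move in contrasting ways across the sort: Cldn2 and Cldn15 are both channel-forming, and Cldn3 and Cldn4 are neighbours 39.28 kb apart on chromosome 5. Each sequence is the sense strand 5′ to 3′ in build GRCm38.p6 from RefSeq, from 250 bases before to 50 after the annotated start, and capitals mark matches to the motifs searched.
Cldn2 (chrX:139800558-139800857, plus strand): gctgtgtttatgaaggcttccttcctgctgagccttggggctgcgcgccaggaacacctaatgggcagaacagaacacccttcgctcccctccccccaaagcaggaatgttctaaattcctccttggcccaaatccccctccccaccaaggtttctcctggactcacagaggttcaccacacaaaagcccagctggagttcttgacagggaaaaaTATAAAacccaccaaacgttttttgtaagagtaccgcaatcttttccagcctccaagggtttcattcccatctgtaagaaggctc
Cldn15 (chr5:136967619-136967918, plus strand): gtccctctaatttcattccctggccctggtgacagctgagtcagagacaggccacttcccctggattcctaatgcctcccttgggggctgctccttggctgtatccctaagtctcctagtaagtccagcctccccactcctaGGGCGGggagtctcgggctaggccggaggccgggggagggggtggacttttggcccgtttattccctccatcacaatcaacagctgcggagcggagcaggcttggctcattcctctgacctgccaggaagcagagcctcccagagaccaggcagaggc
Cldn3 (chr5:134985964-134986263, plus strand): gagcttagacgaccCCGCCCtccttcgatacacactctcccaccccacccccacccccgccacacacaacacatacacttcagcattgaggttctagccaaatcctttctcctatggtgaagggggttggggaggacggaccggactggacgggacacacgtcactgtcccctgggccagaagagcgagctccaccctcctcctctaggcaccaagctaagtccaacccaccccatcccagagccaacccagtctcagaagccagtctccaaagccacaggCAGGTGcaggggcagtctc
Cldn4 (chr5:134946885-134947184, minus strand): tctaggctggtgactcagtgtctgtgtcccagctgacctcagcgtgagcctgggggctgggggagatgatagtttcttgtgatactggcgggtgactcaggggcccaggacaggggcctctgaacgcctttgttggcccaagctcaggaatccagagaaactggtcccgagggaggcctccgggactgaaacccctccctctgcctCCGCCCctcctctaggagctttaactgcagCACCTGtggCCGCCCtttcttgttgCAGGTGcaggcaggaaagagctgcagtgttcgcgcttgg
The motifs, searched on both strands, were the TATA box TATAAA, the GC box GGGCGG, the E2 box CACCTG, a TCF/LEF motif CTTTGAT, a SOX motif AACAATG, a CDX motif TTTATTG and an HNF4 motif CAAAGTCCA. The Cldn2 region held TATAAA at position -35, counted in bases from the annotated start, and no GC box or E2 box. The Cldn15 region held a GC box at position -108. The Cldn3 region held a GC box at position -236 and an E2 box at position 32, both on the opposite strand. The Cldn4 region held GC boxes at positions -44 and -5 and E2 boxes at positions -14 and 12. Among all 32851 RefSeq start regions of this length, TATAAA occurred in 13.6%, GGGCGG in 35.7%, CACCTG in 20.2%, CTTTGAT in 3.73%, AACAATG in 3.78%, TTTATTG in 4.6% and CAAAGTCCA in 0.475%. The last 4 motifs were not found in any of these 4 windows. GC content was 51.3% for Cldn2, 60.7% for Cldn3 and 61% for both Cldn4 and Cldn15, against a median of 52.7% over all start regions. These matches describe letters only, and nothing is drawn from them about binding.

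Values are normalised read counts as deposited. Differences are on the scale of log2(value + 1) with the standard error of the limma fit, and a difference is called when its adjusted p is below 0.05. Where leaving out a library changes a call, its adjusted p is given, followed by the range over all alternatives tried for that difference (22 for Cldn8, 23 otherwise). The channel-forming claudins had opposite profiles outside High. Cldn2, whose protein forms a paracellular channel for cations and water, had values of 1480, 1467 and 1727 in Low. In Sublow it measured 1121, 673 and 1677, in High 458, 319 and 447, and in Negative 528, 211 and 490. Cldn2 was therefore highest in Low and Sublow, whose ranges overlap, and every library of either lay above every library of High and Negative. The means ± SD (n = 3 each) were 1558 ± 146 in Low, 1157 ± 503 in Sublow, 409 ± 173 in Negative and 408 ± 77.4 in High. High was lower than Low by a log2 difference of -1.95 ± 0.36 (adjusted p = 0.000931 by limma), and Negative lower than Low by -2.03 ± 0.36 (adjusted p = 0.000407 by limma). High and Negative differed by 0.09 ± 0.36 (adjusted p = 0.856 by limma), and Sublow and Low by -0.52 ± 0.36 (adjusted p = 0.327 by limma). Across libraries, the Sublow value of Cldn2 was lowest in Sublow B. That library also had the lowest Sublow sums of stem cell (7314), cycling (19013), Paneth (12346), enteroendocrine (1984) and tuft markers (177), and the highest enterocyte sum (316990). A link of Cldn2 to any of these cell types was not tested.

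Cldn15, which also forms a cation channel, measured 198, 175 and 134 in High and 1408, 1853 and 1495 in Low. Its values were 2739, 4148 and 2915 in Sublow, then 4599, 6062 and 4824 in Negative. The 4 populations did not overlap and ran from High through Low and Sublow to Negative, the reverse of the Sox9 order. Cldn15 in High was 19.1-fold lower than in Sublow (log2 difference -4.26 ± 0.20, adjusted p = 1.33e-08 by limma) and 30.5-fold lower than in Negative (-4.93 ± 0.20, adjusted p = 3.03e-09 by limma), the widest differences among the 9 genes. Low to Sublow was a smaller step of 1.03 ± 0.20 (adjusted p = 0.00315 by limma). The last step, Sublow against Negative, was -0.67 ± 0.20 (adjusted p = 0.0264 by limma). That call was lost without Sublow A, Sublow C or Negative B, with an adjusted p of 0.0891, 0.0840 and 0.110 (range 0.00288 to 0.139). Enterocyte marker sums had the same order over Low, Sublow and Negative. In High, where Cldn15 was lowest, they were 25885 to 35746, against 11327 to 30999 in Low. Of these markers, only Fabp1 (2.59) and Sis (1.43) were called higher in High than in Low. Lct (-0.27), Anpep (0.11), Alpi (-1.01) and Apoa1 (-0.28) were not called. A link of Cldn15 to enterocyte content was not tested.

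**Figure D1:**
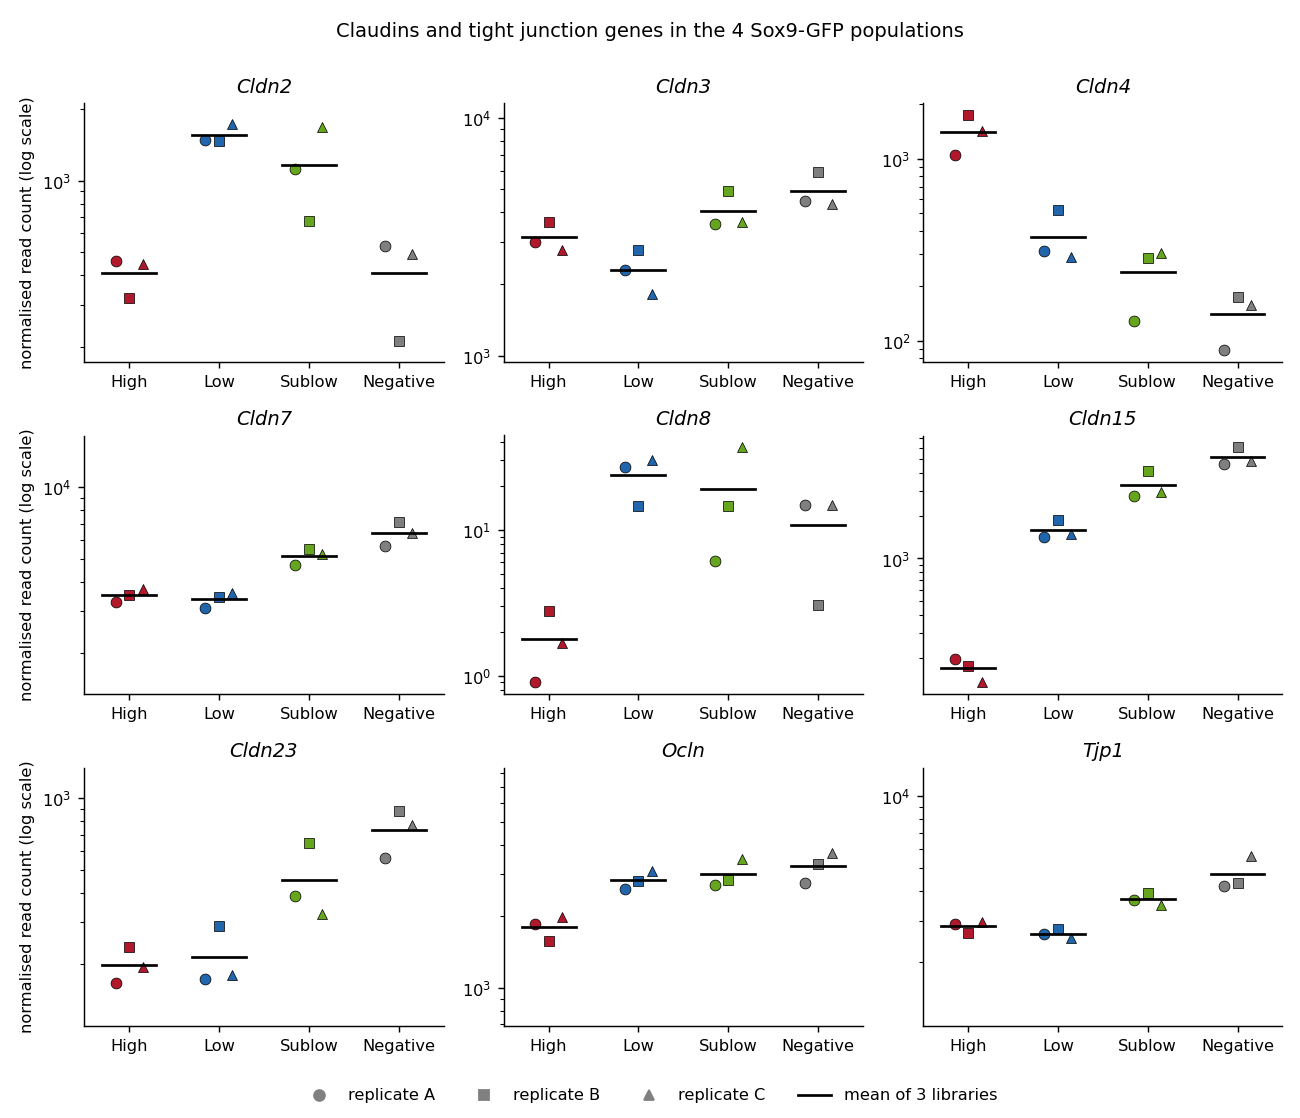
Normalised read counts (log axis, each panel with its own range) of the 9 genes in the 12 libraries; marker shapes give the replicate letter and lines the mean of 3 libraries. Cldn2 peaks in Low and Sublow, Cldn4 is highest in High, and Cldn15 rises from a mean of 169 in High to 5162 in Negative.

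Of the claudins usually described as sealing, Cldn4 had its highest values in High. Its values there were 1043, 1730 and 1422. In Low it measured 310, 522 and 288, in Sublow 128, 286 and 303, and in Negative 88.7, 174 and 156. High was above every other library, Low and Sublow overlapped, and so did Sublow and Negative. The mean was 1398 ± 344 in High, 373 ± 129 in Low, 239.0 ± 96.8 in Sublow, then 139.6 ± 44.9 in Negative. Cldn4 was 3.80-fold higher in High than in Low (1.92 ± 0.37, adjusted p = 0.00114 by limma) and 10.1-fold higher in High than in Negative (3.34 ± 0.37, adjusted p = 7.04e-06 by limma). It was lower in Negative than in Low by -1.42 ± 0.37 (adjusted p = 0.00537 by limma). Sublow was not called against Low (-0.69 ± 0.37, adjusted p = 0.201, range 0.00104 to 0.600 over the alternatives, 2 of which called it lower) or against Negative (0.73 ± 0.37, adjusted p = 0.153), by limma; without Sublow A the latter became 1.13 and was called, with an adjusted p of 0.0438 (range 0.0211 to 0.787).

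Cldn3, a barrier claudin encoded beside Cldn4, had a different profile. It measured 3000, 3654 and 2783 in High, 2286, 2770 and 1819 in Low, 3586, 4908 and 3634 in Sublow, then 4472, 5944 and 4341 in Negative. Low libraries were the lowest and Negative the highest, with Sublow overlapping both High and Negative. Negative exceeded Low by 1.11 ± 0.19 (adjusted p = 0.000378 by limma), and Sublow exceeded Low by 0.82 ± 0.19 (adjusted p = 0.00925 by limma). High lay above Low in every library, but the difference of 0.47 ± 0.19 was not called (adjusted p = 0.0689 by limma); it was called without Low B (0.62) or without Sublow B (0.47), with an adjusted p of 0.0350 and 0.0486 (range 0.00248 to 0.244). High was lower than Negative by -0.64 ± 0.19 (adjusted p = 0.0135 by limma), a call lost without High C or Negative B, with an adjusted p of 0.0561 and 0.0625 (range 0.00019 to 0.439). Thus the neighbours Cldn3 and Cldn4 differed in the same direction between High and Low, of which only the Cldn4 difference was called, and in opposite called directions between Negative and Low.

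Cldn7, which is found along the lateral membrane as well as in tight junctions, measured 3298, 3519 and 3729 in High and 3115, 3438 and 3580 in Low. It measured 4685, 5479 and 5237 in Sublow, then 5665, 7132 and 6428 in Negative. High and Low overlapped, while Sublow and then Negative lay above both. High and Low differed by 0.06 ± 0.12 (adjusted p = 0.738 by limma). Sublow exceeded Low by 0.60 ± 0.12 (adjusted p = 0.00460 by limma) and Negative exceeded Low by 0.92 ± 0.12 (adjusted p = 6.22e-05 by limma). Sublow lay below Negative in every library, yet the difference of -0.32 ± 0.12 was not called (adjusted p = 0.0741 by limma); without Negative A it was -0.40 and called, with an adjusted p of 0.0489 (range 0.00956 to 0.937).

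Cldn23, a claudin reported from differentiated gut epithelium, was also lowest in High and Low. It measured 167, 237 and 194 in High, 173, 289 and 181 in Low, 387, 646 and 326 in Sublow, then 561, 884 and 769 in Negative. High and Low overlapped, as did Sublow and Negative, and the latter pair lay above the former. Negative was 3.47-fold above Low (1.79 ± 0.28, adjusted p = 0.000178 by limma) and 3.66-fold above High (-1.87 ± 0.28 for High minus Negative, adjusted p = 0.000103 by limma). The excess of Sublow over Low, 1.05 ± 0.28 (adjusted p = 0.0173 by limma), was lost without Low A, Low C or Sublow B, with an adjusted p of 0.0738, 0.0672 and 0.0719 (range 0.000809 to 0.0738). The difference of -0.74 ± 0.28 between Sublow and Negative was not called (adjusted p = 0.0676 by limma), but was without Sublow B (-1.03) or Negative A (-0.93), with an adjusted p of 0.0101 and 0.0473 (range 0.0059 to 0.229).

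Cldn8, a sealing claudin best known from colon and kidney, was near the limit of these libraries. It had 1, 3 and 2 reads in High, 25, 17 and 38 in Low, 6, 13 and 42 in Sublow, then 14, 2 and 13 in Negative. The 3 High libraries were the lowest in normalised value, and the other populations overlapped one another. In summed reads divided by the summed reads per normalised unit, Low was 13.5-fold above High (exact 95% counting interval 5.92 to 37.7, from 80 and 6 reads). Sublow was 11.4-fold above High (4.95 to 32.3, 61 reads) and Negative 6.60-fold above it (2.69 to 19.4, 29 reads); these intervals cover counting error only. The limma difference between High and Low was -3.16 ± 0.69 (adjusted p = 0.00276). High minus Negative, -1.91 ± 0.69 (adjusted p = 0.0319 by limma), was lost without High A, High C, Negative A or Negative C, with an adjusted p of 0.101, 0.0697, 0.110 and 0.110 (range 0.00229 to 0.11).

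Ocln, an accessory strand protein, measured 1858, 1578 and 1973 in High, 2603, 2821 and 3104 in Low, 2699, 2840 and 3467 in Sublow, then 2751, 3299 and 3679 in Negative. High was below every other library and the other 3 populations overlapped. The High difference was -0.66 ± 0.15 against Low (adjusted p = 0.00347 by limma), -0.73 ± 0.15 against Sublow (adjusted p = 0.00129 by limma) and -0.84 ± 0.15 against Negative (adjusted p = 0.000374 by limma). Among Low, Sublow and Negative no difference in Ocln was called, the widest being 0.18 ± 0.15 for Negative minus Low (adjusted p = 0.314 by limma). With all libraries scaled to the same total, this last difference turned to -0.38 and was called, with an adjusted p of 0.0478 (range 0.0478 to 0.677).

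Tjp1, the strand's scaffold, measured 2909, 2661 and 2952 in High, 2634, 2770 and 2532 in Low, 3669, 3933 and 3488 in Sublow, then 4192, 4326 and 5623 in Negative. High and Low overlapped, Sublow lay above both and Negative above Sublow in every library. Negative exceeded Low by 0.82 ± 0.13 (adjusted p = 0.000173 by limma) and High was lower than Negative by -0.72 ± 0.13 (adjusted p = 0.000401 by limma). Both calls were lost with every library at the same total (0.26 and -0.23, adjusted p = 0.107 and 0.156 by limma). They were also lost with quantile normalization (0.29 and -0.27, adjusted p = 0.0553 and 0.0657 by limma). The step from Low to Sublow, 0.48 ± 0.13 (adjusted p = 0.0172 by limma), was lost without Low A, Low C or Sublow B, with an adjusted p of 0.0557, 0.0578 and 0.0601 (range 0.0012 to 0.248). The difference of -0.38 ± 0.13 between High and Sublow (adjusted p = 0.0256 by limma) was lost without High A, High B, Sublow A or Sublow B, with an adjusted p of 0.0539, 0.0927, 0.0537 and 0.0689 (range 0.00197 to 0.282). Sublow minus Negative was -0.34 ± 0.13 and not called (adjusted p = 0.0662 by limma).

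All 9 genes were called in the F test over the 4 populations, as were 69.5% of the 16577 genes tested. Between High and Low, 5 of the 9 were called, against 42.9% of all genes. Cldn4 was higher (23.6% of all genes called higher) and Cldn2, Cldn8, Cldn15 and Ocln were lower (19.3% called lower). The median difference of the 9 was -0.08, beside 0.10 over all genes. Libraries of both populations were fully separated for 6 of the 9, Cldn3 being the addition, against 60.7% of all genes.

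From Low to Sublow, 5 of the 9 were called, against 24.0% of all genes: Cldn3, Cldn7, Cldn15, Cldn23 and Tjp1, all higher (13.3% called higher, 10.7% lower). From Low to Negative, 7 were called, against 57.2% of all genes. The same 5 genes were higher (26.8% called higher) and Cldn2 and Cldn4 were lower (30.3% called lower). The median difference of the 9 was 0.48 for Sublow and 0.82 for Negative, beside -0.06 and -0.05 over all genes. Full separation of the libraries was seen for the same 5 and 7 genes, against 37.0% and 66.5% of all genes. Both comparisons use the Low libraries, so they are not independent of each other. The count for Sublow was 3 without Low A, without Low C or without Sublow B.

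High minus Negative gave 8 calls among the 9, against 54.6% of all genes. Cldn4 was higher (28.8% called higher) and Cldn3, Cldn7, Cldn8, Cldn15, Cldn23, Ocln and Tjp1 were lower (25.8% called lower). High minus Sublow also gave 8 calls, against 52.0% of all genes, with Cldn4 higher (26.7% called higher) and Cldn2, Cldn7, Cldn8, Cldn15, Cldn23, Ocln and Tjp1 lower (25.3% called lower). The median difference of the 9 was -0.84 and -0.73, beside 0.03 over all genes in both. Sublow minus Negative gave 2 calls, against 27.7% of all genes: Cldn2 was higher (1.51 ± 0.36, adjusted p = 0.0120 by limma; 15.1% called higher) and Cldn15 was lower (12.7% called lower). Libraries were fully separated for 8, 8 and 4 of the 9 in these comparisons, against 64.9%, 58.6% and 39.8% of all genes, the additions in Sublow minus Negative being Cldn7 and Tjp1. Without Sublow C or Negative B the count of calls in the latter was 1 and without Negative A it was 4.

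The deposited totals differ between populations, with population means of 13.4 M units for High, 12.7 M for Low, 15.4 M for Sublow and 18.8 M for Negative, so directions in small differences depend on the scale. With every library set to the same total, the median gene shifted by -0.27 for Sublow minus Low, -0.56 for Negative minus Low, 0.49 for High minus Negative, 0.29 for Sublow minus Negative, 0.20 for High minus Sublow and -0.07 for High minus Low. The share of all calls that were higher then went from 55.3% to 28.6%, 46.9% to 23.3%, 52.8% to 74.1%, 54.4% to 86.3%, 51.3% to 63.2% and 55.1% to 51.0%. In the same order, the genes called higher and lower at the same total were 1306 and 3263, 2441 and 8049, 7423 and 2588, 3829 and 610, 5430 and 3166, and 3530 and 3397, of 16577. On that scale the 9 genes gave 4 calls for Sublow minus Low, all higher (Tjp1 lost), and 4 higher and 4 lower for Negative minus Low (Tjp1 lost; Cldn8 and Ocln gained, both lower). High minus Negative gave 1 higher and 3 lower, with Cldn3, Cldn8, Ocln and Tjp1 lost. Sublow minus Negative gave 2 calls, both higher, with Cldn15 lost and Cldn4 gained. High minus Sublow gave 1 higher and 6 lower, with Tjp1 lost, and High minus Low was the same as deposited, 1 higher and 4 lower. The differences called for Cldn2, Cldn4, Cldn7 and Cldn23, and all those of Cldn15 but Sublow minus Negative, were called on both scales.

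**Figure D2:**
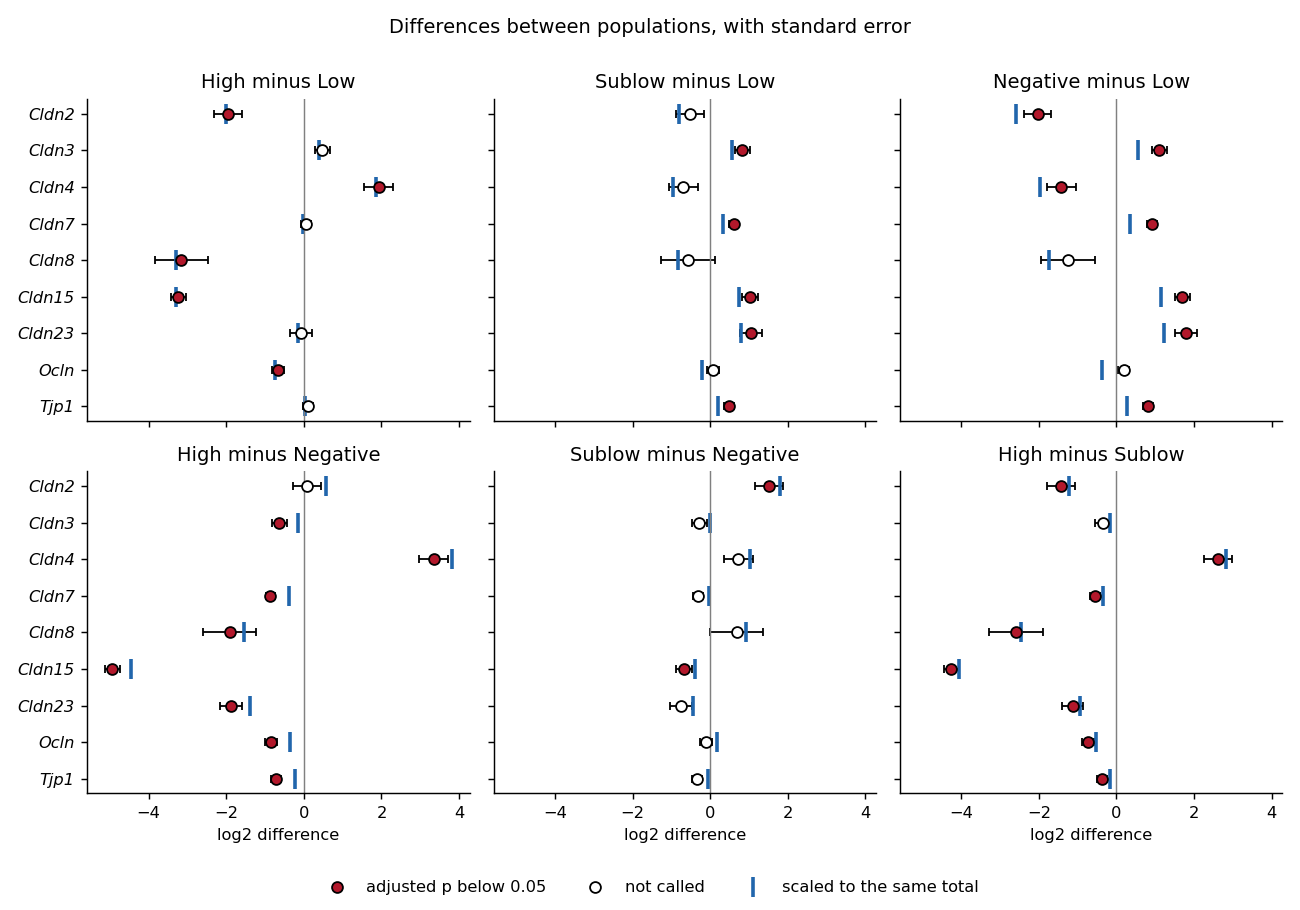
Log2 differences of the 9 genes in the 6 comparisons with standard errors; filled points have an adjusted p below 0.05 and vertical ticks give the value with all libraries scaled to the same total. Cldn15 and Cldn4 in High lie farthest from 0, at -4.93 and 3.34 against Negative, and the ticks move most in comparisons with Negative.

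Levels of different genes were set side by side only as normalised read counts per kb of exon. On that scale Cldn3 and Cldn7 were the most abundant of the 9 in Low, Sublow, Negative and High alike, Cldn3 at 2499, 1820, 3211 and 3907 per kb and Cldn7 at 2380, 2287, 3476 and 4339 per kb in High, Low, Sublow and Negative. Over the 28 claudin genes in the table, the summed level per kb was 6277 in High, 6051 in Low, 9393 in Sublow, then 11849 in Negative. The 7 claudins described here made up 95.2%, 95.5%, 97.6% and 97.7% of it. The share of Cldn7 lay between population means of 36.7% ± 1.67 in Negative and 38.0% ± 2.98 in High. Cldn15 made up 1.42% ± 0.323 of claudin level in High, 13.7% ± 0.789 in Low, 18.1% ± 1.87 in Sublow, then 22.9% ± 0.432 in Negative. Cldn4 went the other way, from 12.2% ± 2.12 in High through 3.35% ± 0.838 and 1.38% ± 0.501 to 0.641% ± 0.160 in Negative. Cldn2 reached 8.52% ± 1.28 in Low against 2.16% ± 0.552 in High, 4.18% ± 2.01 in Sublow, then 1.19% ± 0.600 in Negative. Shares within a library do not depend on its scaling, but a share can change because another claudin does. These shares and the ratios below are descriptions without a test, each over 3 libraries a population.

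**Figure D3:**
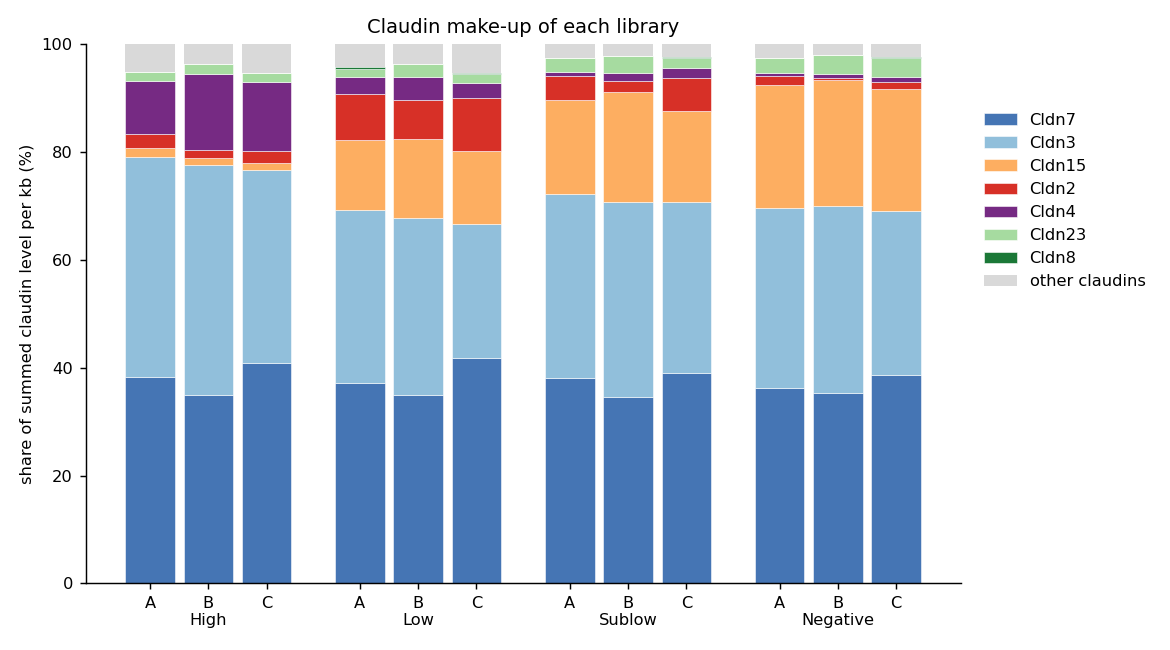
Share of the summed claudin level per kb of exon (%, stacked to 100) taken by each claudin in each of the 12 libraries. Cldn3 and Cldn7 together hold most of every bar, Cldn4 is visible mainly in High, and Cldn15 widens from 1.42% in High to 22.9% in Negative.

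The ratio of Cldn2 to Cldn15 per kb compares the channel-forming claudins within a library. It was 1.45, 1.14 and 2.08 in High, 0.657, 0.495 and 0.722 in Low, 0.256, 0.101 and 0.359 in Sublow, then 0.072, 0.022 and 0.063 in Negative. The populations did not overlap, and High is the only population in which Cldn2 exceeded Cldn15 per kb, with both genes at low levels there (134 and 88.8 per kb). The ratio of Cldn4 to Cldn3 per kb averaged 0.308 ± 0.059 in High, 0.111 ± 0.018 in Low, 0.041 ± 0.017 in Sublow, then 0.020 ± 0.006 in Negative. Sublow and Negative overlapped in this ratio, while High and Low stood clear of the rest. The ratio of Ocln to Tjp1 per kb averaged 1.07 ± 0.064 in High, 1.81 ± 0.218 in Low, 1.38 ± 0.258 in Sublow, then 1.16 ± 0.104 in Negative, so that Low was highest, with an overlap with Sublow.

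**Figure D4:**
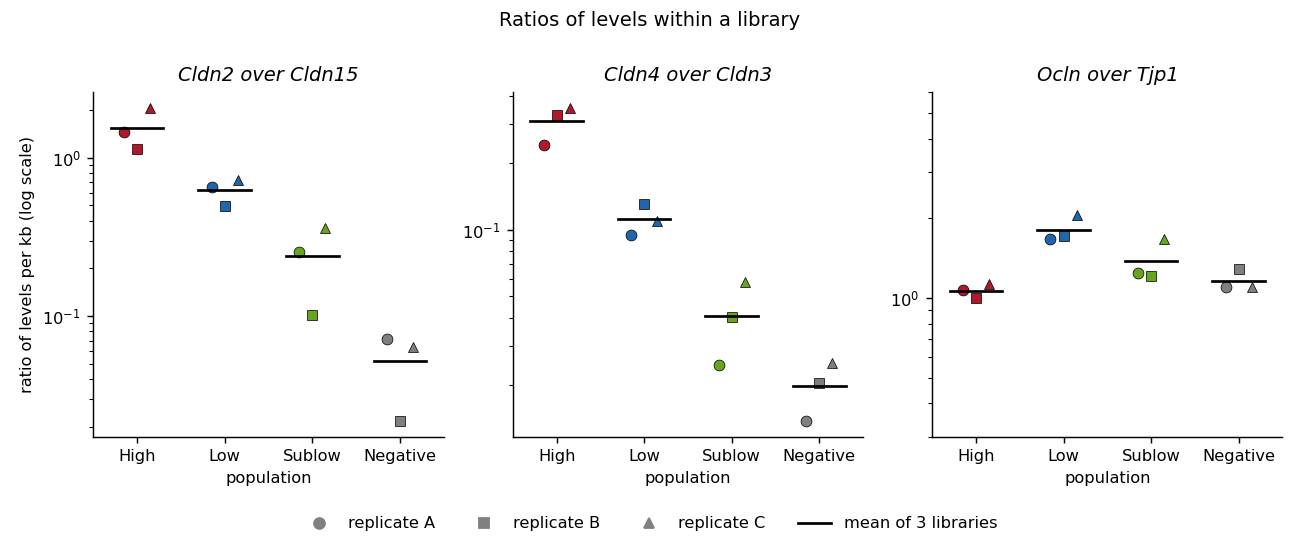
Ratios of levels per kb of exon within each library (log axis), with the mean of 3 libraries as a line, for Cldn2 over Cldn15, Cldn4 over Cldn3 and Ocln over Tjp1. The first goes from a mean of 1.56 in High to 0.052 in Negative without overlap between populations, and the third is highest in Low at a mean of 1.81.

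Over the 12 libraries the log2 values of the 9 genes formed a few patterns, given here as Pearson correlations that the 4 populations largely set, with no test. These correlations use the deposited scale, on which library totals differ between populations, and were not repeated at the same total. Cldn7, Cldn23 and Tjp1 went together, at r = 0.947 for Cldn7 with Cldn23, 0.923 for Cldn7 with Tjp1 and 0.910 for Cldn23 with Tjp1. Cldn15 went most closely with Ocln, at 0.897, and against Cldn4, at -0.918. Cldn2 went with Cldn8, at 0.752, and against Cldn3, at -0.646, with the remaining 6 between -0.407 and 0.352. Of all genes averaging at least 100, the most alike were Gart (0.995), Naa25 (0.992) and Ung (0.992) for Cldn2, and Gss (0.998), Plcb3 (0.996) and Tcim (0.995) for Cldn15. For Cldn4 they were Med13l (0.976), Ppp1r15a (0.975) and Mprip (0.972), for Cldn3 Spint2 (0.988), Dap (0.981) and Nucb1 (0.975), and for Cldn7 Uck1 (0.990), Cab39 (0.989) and Epcam (0.989). For Cldn23 they were Snx20 (0.993), Cyp2c66 (0.989) and Nr3c2 (0.986), for Cldn8 Cnot2 (0.949), Cks2 (0.948) and Tmem70 (0.945), for Ocln Kdsr (0.971), Nceh1 (0.968) and Jag1 (0.968), and for Tjp1 Cpt2 (0.981), Sel1l (0.979) and Bfar (0.975). The gene most like Cldn15, Gss, had means of 490, 1173, 1645 and 1964 in High, Low, Sublow and Negative, and the one most like Cldn2, Gart, had 265, 1351, 990 and 272.

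The 7 claudins described here held 95.2% to 97.7% of the summed claudin level per kb by population mean, and the remaining claudins the rest. Not all of these were rare. Cldn12 reached the filter value in every library, with a highest value of 736, and was not called in the F test (adjusted p = 0.255 by limma). Of 23 other claudin genes listed, 21 were in the table, 2 of them were at 0 in every library and 8 passed the filter. Cldn9, Cldn14 and Cldn18 passed only through High, where they had to be higher, so no count of calls is given for these genes. Cldn34c1, the only other claudin above the size minimum with a call, averaged 278 in High, 233 in Low, 248 in Sublow, then 426 in Negative, and exceeded Low in Negative by 0.87 ± 0.22 (adjusted p = 0.00546 by limma). With every library at the same total that difference was 0.31 and not called (adjusted p = 0.248). Cldn5, the claudin of endothelium, reached at most 4.08 in any library.

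Of the 69 other junction genes tested, claudins not included, each reached the filter value in more than 1 population. Of these, 13 were higher and 18 lower in High than in Low (18.8% and 26.1%, beside 23.6% and 19.3% of all genes). In Sublow against Low, 24 were higher and 6 lower (34.8% and 8.70%, beside 13.3% and 10.7%), and in Negative against Low 38 and 14 (55.1% and 20.3%, beside 26.8% and 30.3%). High against Negative gave 15 higher and 36 lower (21.7% and 52.2%, beside 28.8% and 25.8%), Sublow against Negative 8 and 15 (11.6% and 21.7%, beside 15.1% and 12.7%), and High against Sublow 14 and 29 (20.3% and 42.0%, beside 26.7% and 25.3%). Scaled to the same total, these became 11 and 20, 7 and 11, 18 and 25, 23 and 26, 11 and 3, and 17 and 23. In the same order, all 16577 genes then gave 3530 and 3397, 1306 and 3263, 2441 and 8049, 7423 and 2588, 3829 and 610, and 5430 and 3166. The balance of directions in comparisons with Sublow and Negative therefore depends on the scale. The genes named below were called in the same direction on both scales, in the comparison given for each, unless said.

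Of 5 genes of the tricellular junction and occludin's family, 4 were higher in High than in Negative, beside 28.8% of all genes. At the same total all 5 were higher, beside 7423 of all 16577 genes. The exception on the deposited scale was Lsr, a tricellular receptor, at -0.01 ± 0.13 (adjusted p = 0.947 by limma). Ildr1, a receptor of tricellular contacts, measured 1969, 1686 and 2038 in High and averaged 249.5 ± 76.6 in Low, 62.3 ± 28.6 in Sublow, then 20.0 ± 1.40 in Negative. It was 90.1-fold higher in High than in Negative (6.49 ± 0.33, adjusted p = 1.28e-08 by limma). Marveld3, an occludin relative, was 2.08-fold higher in High than in Low (1.06 ± 0.11, adjusted p = 1.57e-05 by limma), and Marveld2 (tricellulin) was 1.51-fold higher in High than in Sublow (0.60 ± 0.15, adjusted p = 0.00505 by limma).

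Adhesion molecules of the JAM and CAR family went several ways, with 4 of 8 higher and 3 lower in Negative than in Low (2 and 3 at the same total). Beside them stand 26.8% and 30.3% of all genes, and at the same total 2441 and 8049 of 16577 genes. Cxadr, a cell adhesion receptor of the junction, resembled Cldn15 in order, with means of 1056 ± 133 in High, 2662 ± 493 in Low, 3904 ± 577 in Sublow, then 4980 ± 640 in Negative. Jaml, the ligand of Cxadr, was highest in Low, at 499 ± 35.5 against 256 ± 51.9 in Sublow, 163 ± 73.5 in Negative and 35.0 ± 15.1 in High. High was lower than Low by -3.89 ± 0.39 (adjusted p = 1.41e-05 by limma), while Sublow minus Low was not called (adjusted p = 0.0898 by limma). F11r (JAM-A) and Igsf5 were higher in Negative than in Low by 1.45 ± 0.18 and 1.65 ± 0.18 (adjusted p = 3.21e-05 and 1.73e-05 by limma). Jam2 was higher in High than in Low by 0.59 ± 0.18 (adjusted p = 0.0209 by limma).

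Cytoplasmic plaque genes, the neighbours of Tjp1, were called lower in High than in Negative for 7 of 14 and higher for 3 (6 and 5 at the same total). Of all genes, 25.8% were lower and 28.8% higher, and at the same total 2588 lower and 7423 higher of 16577. Cgnl1 (paracingulin) was highest in Low, at 320 ± 91.5 against 52.9 ± 11.2 in Negative (-2.56 ± 0.43 for Negative minus Low, adjusted p = 0.000290 by limma). Magi3 and Magi1, scaffolds with several PDZ domains, were lower in High than in Negative by -2.02 ± 0.13 and -1.50 ± 0.13 (adjusted p = 9.83e-08 and 1.17e-06 by limma), whereas Amot was higher there by 1.52 ± 0.18 (adjusted p = 1.29e-05 by limma). Ybx3 (ZONAB), a transcription factor that binds Tjp1, averaged 769 ± 60.0 in High and 2328 ± 266 in Low. Its mean was 2249 ± 847 in Sublow and 1051 ± 218 in Negative.

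Of 12 polarity genes, 5 were higher and 2 lower in Negative than in Low (4 and 4 at the same total). The figures over all genes were 26.8% and 30.3%, and at the same total 2441 and 8049 of 16577. Crb3 and Prkcz, parts of the apical Crumbs and Par complexes, were higher in Negative than in Low by 1.31 ± 0.18 and 1.31 ± 0.19 (adjusted p = 7.54e-05 and 9.26e-05 by limma). Pard6b and Mpp5 (Pals1) were lower in High than in Negative by -1.86 ± 0.20 and -1.63 ± 0.16 (adjusted p = 6.44e-06 and 2.13e-06 by limma), and Pard3b was lower in High than in Sublow by -1.97 ± 0.22 (adjusted p = 1.48e-05 by limma).

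Among junction regulators, 8 of 11 were higher and 2 lower in Negative than in Low (4 and 3 at the same total). Over all genes 26.8% were higher and 30.3% lower, and at the same total 2441 and 8049 of 16577. Mylk, which encodes myosin light chain kinase, an enzyme that opens tight junctions by contracting the actin ring, averaged 334 ± 95.1 in High, 916 ± 391 in Low, 4802 ± 2377 in Sublow, then 9919 ± 1185 in Negative. It was 30.4-fold lower in High than in Negative (-4.92 ± 0.39, adjusted p = 4.46e-07 by limma). Wnk4, a kinase known to act on claudins, had the reverse order, with 1872 ± 170 in High, 973 ± 176 in Low, 591 ± 236 in Sublow, then 204 ± 68.7 in Negative. The membrane protease St14 (matriptase) averaged 1069 ± 131 in High and 5012 ± 313 in Negative, and its inhibitor Spint1 was higher in Negative than in Low by 1.74 ± 0.19 (adjusted p = 1.79e-05 by limma).

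**Figure D5:**
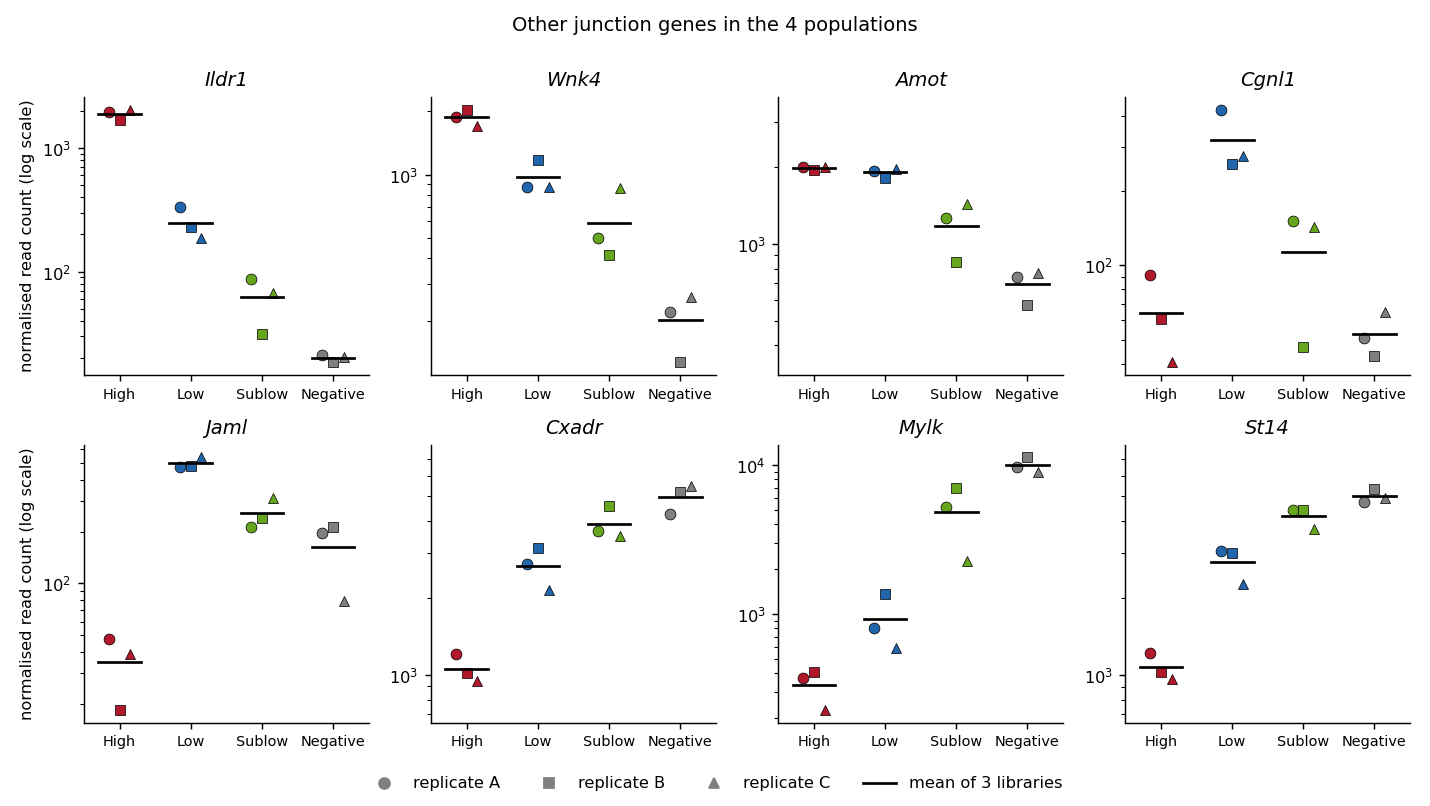
Normalised read counts (log axis, each panel with its own range) of 8 other junction genes in the 12 libraries, with the mean of 3 libraries as a line. Ildr1 and Wnk4 fall from High to Negative, Mylk, Cxadr and St14 rise from High to Negative, and Jaml and Cgnl1 peak in Low.

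Below the tight junction lie the adherens junction and the desmosomes. Of 11 genes listed under the adherens junction, 8 were higher and 1 lower in Negative than in Low. At the same total 3 were higher and 3 lower. Of 8 desmosome genes 5 were higher and 1 lower, and 2 and 2 at the same total. The same comparison gave 26.8% higher and 30.3% lower over all genes, and at the same total 2441 and 8049 of 16577. Cdh17, the intestinal cadherin, counted here in the adherens junction list, averaged 7715 ± 917 in Low and 28454 ± 2658 in Negative (1.89 ± 0.17, adjusted p = 5.80e-06 by limma). Nectin2 and Nectin3 were lower in High than in Negative by -1.79 ± 0.22 and -1.62 ± 0.14 (adjusted p = 1.74e-05 and 1.10e-06 by limma). Pkp1, a desmosomal plaque gene, was instead higher in High than in Negative, at 1168 ± 97.3 and 199 ± 64.9, while its relative Pkp3 averaged 315 ± 23.9 and 1261 ± 190. Dsg2, a desmosomal cadherin, exceeded Low in Negative by 0.62 ± 0.14 (adjusted p = 0.00205 by limma), but by 0.06 at the same total, where it was not called (adjusted p = 0.667).

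By the GENCODE M21 annotation of GRCm38, the genes lie apart from one another except for Cldn4 and Cldn3. Cldn4 occupies chr5:134945119-134946934 and Cldn3, with 1 exon, chr5:134986214-134987472, on opposite strands, and Cldn15 lies on the same chromosome at chr5:136966616-136975858. Cldn2 is at chrX:139800828-139811386, Cldn7 at chr11:69964779-69967885, Cldn8 at chr16:88560828-88563183 and Cldn23 at chr8:35824712-35826559. Ocln is at chr13:100496507-100552718 and Tjp1 at chr7:65296165-65527781. The only overlap with exons of another gene was 40 bases of Cldn3, 3.18% of its exon length, with Wbscr25 on the opposite strand. Whether the authors' counting used strand is not given in the sources used here.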

How the data were processed

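RNA was measured in 12 sorted libraries of mouse intestinal epithelium, 3 for each of 4 populations, grouped by their labels. The authors deposited a table of normalised read counts (a signal per gene symbol and library); dividing each library by its own smallest increment gave whole reads for 100% of values (tolerance 0.01). For the aligner, counting program, genome build and annotation, the entry is: not given in the sources used here. Filtering for 10 or more units in 3 or more libraries kept 16577 of 30265 genes. Values were tested as log2(value + 1) with limma 3.58.1 in R 4.3.3 (trend option, the 12 libraries fitted together, 4.10 prior degrees of freedom), and p-values were adjusted over all genes of a comparison after Benjamini and Hochberg. Scripts were tested on simulated data. Alternatives were other scalings, pseudocounts and filters, edgeR 4.0.16 and DESeq2 1.42.0 on recovered reads, library weights, a replicate block, fits of only the 6 libraries compared and fits that left out each library in turn.

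The 9 genes and the lists of junction and marker genes were chosen with earlier results of these data known. Named were all 9 genes and the 3 genes most correlated with each of the 9. From each junction list up to 5 genes were named, those with the largest called difference among genes averaging at least 100. Lsr, Cldn5, Cldn12, single marker genes and the 3 claudins passing through High only were named after their values were seen. Marker lists not printed by population in the results summed, as means for High, for Low, for Sublow and for Negative, to 3102, 34821, 26495 and 6476 for cycling cells, 8921, 258427, 487267 and 82121 for goblet cells, 2659, 29903, 15522 and 86947 for Paneth cells, 6470, 2190, 1797 and 2120 for M cells, 1050, 758, 777 and 1009 for endothelium and 288, 203, 205 and 270 for enteric neurons and glia. The M cell markers did not move together between High and Low. Spib (2.92) and Sox8 (2.23) were called higher in High, Ccl20 (-2.48) and Tnfrsf11a (-0.78) were called lower, and Tnfaip2 (-0.33) was not called. Levels per kb used exon lengths of GENCODE M21, matched by symbol. Start regions were found for 7 of the 9 genes.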

Additional observations from a re-analysis of the deposited data

How the results depend on the processing

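Of the 54 differences between populations tested for the 9 genes, 35 were called; 25 of these stayed called under every alternative run and 10 were lost under at least 1. Of the 19 not called, 8 were called under no alternative. Several differences that were not called changed sign under an alternative without a call, such as Cldn2 in High minus Negative (-0.34 to 0.57). Where either fit gave a call, the only reversal was Ocln in Negative minus Low, at -0.38 with every library at the same total. On that scale High minus Negative had 4 calls among the 9 genes instead of 8. The change of scale shifted the median gene by 0.49 in that comparison, and why the deposited totals differ was not tested. Sublow minus Low had 5 calls, and 3 in a fit of its 6 libraries alone, which uses fewer samples. Sublow minus Negative, with 2 calls, moved most: quantile normalization gave 1, DESeq2 4, library weights 5, the replicate block 6 and the 6 libraries alone 0 by limma, where 3 had an unadjusted p under 0.05. Leaving out each library in turn gave 5 to 6 calls for High minus Low, 3 to 5 for Sublow minus Low, 6 to 8 for High minus Negative, 1 to 4 for Sublow minus Negative and 7 to 8 for High minus Sublow, and it changed neither the 7 of Negative minus Low nor the 9 of the F test. EdgeR changed no call. Over all genes, Sublow minus Low had 3979 calls, and 7880 with weights, 2520 without Low A, 2503 without Sublow B and 2473 in its 6 libraries. Sublow minus Negative had 4597 calls, and 6939 with weights, 2767 without Sublow A, 2188 without Sublow C, 1748 without Negative B and 46 in its 6 libraries.

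The labels do not say what the replicate letters share. Deviations from population means correlated at 0.0521 to 0.341 over the 18 same-letter pairs (mean 0.156, 13 pairs over 0.1). The mean between letters was -0.0781. It adds nothing of its own, because the deviations of the 3 libraries of a population sum to 0, so it largely follows from the same-letter mean. Each of the 12 libraries correlated best with its own letter, a hint from the data only. With the letter as a block, no call was lost and 7 were gained: Cldn3 in High minus Low, High minus Sublow and Sublow minus Negative, Cldn4 in Sublow minus Low (-0.69) and Sublow minus Negative, and Cldn7 and Cldn23 in Sublow minus Negative. Library weights also called Cldn4 lower in Sublow than in Low (-1.49). At this depth Cldn8, with at most 42 reads in a library, is the gene whose values are limited by counting.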
